A study of Mus musculus with 8 samples.

Results

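The genes described here are 31 genes of cholesterol synthesis, of its control by the SREBP transcription factors, and of the fatty acid synthesis that the same factors drive. They were chosen by name, with earlier results of these data known, and all 31 were found among the 53921 rows of the counts table that name a gene. All 31 also had enough counts to be tested, among 15324 tested genes. RNA-seq counts came from mouse induced cardiomyocytes, which are fibroblasts pushed towards a heart muscle identity by forced expression of transcription factors. The 2 shGrhl3 libraries came from cells carrying a lentiviral hairpin that targets Grhl3, a transcription factor of the Grainyhead family studied mostly in epithelia. The 2 shNT libraries came from cells with the lentiviral hairpin called shNT and serve as the control. All 4 libraries shared the MGT mix (Mef2c, Gata4 and Tbx5, as the letters are used for heart reprogramming), the cell label Neo, and collection on day 5. The labels name 1 hairpin per group. They are silent on separate cultures, so the p-values reflect library-to-library spread alone, and that spread may be technical. The series also holds 4 H3K27ac CUT&Tag samples, not analysed here.

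Cells build cholesterol from acetyl-CoA through mevalonate and short isoprenoid chains to squalene, which is closed into the sterol ring and then trimmed and reduced to cholesterol. When the membrane of the endoplasmic reticulum is poor in cholesterol, Scap carries SREBP proteins to the Golgi, where proteases release their active part, and when sterols are plentiful the Insig proteins hold Scap back. Active SREBP, often together with NF-Y and Sp1, turns on most enzymes of this route and enzymes that make fatty acids.

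Library totals lay between 16102839 and 19822541 counts. Values below are CPM, read counts scaled to a common library size with TMM factors, and a gene was called higher or lower at an adjusted p under 0.05 in edgeR's quasi-likelihood test over all tested genes. The targeted gene, Grhl3, was near the limit of detection, with 11 and 19 counts in the shGrhl3 libraries against 31 and 14 in the shNT libraries. The groups overlapped, and its log2 fold change of -0.72 (95% interval -1.81 to 0.37, edgeR adjusted p = 0.311) did not pass the test. The knockdown named by the labels was not detectable in its RNA at this depth. The rRNA gene Rn18s took 0.0959% and 0.156% of the counts in shGrhl3 libraries against 0.573% and 2.00% in shNT libraries, and without the rRNA rows the counts of members given below were again 11 higher and 5 lower. Markers of the labelled cells were present in every library. The 15 cardiomyocyte markers summed to 6246 and 6090 CPM in shGrhl3 libraries against 4948 and 4956 CPM in shNT libraries. Most abundant of them was Tnnt2, which did not pass (log2 fold change -0.003, edgeR adjusted p = 0.982). Of the 14 tested, 7 were higher (50%, against 17.2% of all tested genes), among them Myh6 (3.61) and Tnni3 (2.59). Nppa was the 1 lower gene (-0.62). The 12 cardiac fibroblast markers summed to 13672 and 14335 CPM in shGrhl3 libraries against 13233 and 13539 CPM in shNT libraries. Of the 12 fibroblast markers, 7 were lower (58.3%, against 18.1% of all tested genes), among them Pdgfra (log2 fold change -1.14) and Tcf21 (-0.71). The 2 higher ones (16.7%, against 17.2%) included Col1a1 (0.53), the most abundant of the list. Of the delivered factors, Tbx5 (log2 fold change -0.31, edgeR adjusted p = 0.00311) and Gata4 (-0.23, edgeR adjusted p = 0.032) were lower in shGrhl3, while Mef2c, at -0.37, did not pass (edgeR adjusted p = 0.189). Counts per gene do not separate delivered transcripts from the cells' own. The Tbx5 call ended without shNT replicate 1 (edgeR adjusted p = 0.124), and that of Gata4 with library sizes alone (0.0582), with a replicate block (0.0653), without shGrhl3 replicate 1 (log2 fold change -0.15, adjusted p = 0.178) and without either shNT library (0.233 and 0.158).

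Of the 31 genes, 16 passed the test (51.6%), where 35.3% of all tested genes were called. Of these, 11 were higher in shGrhl3 cells, 35.5% of the members against 17.2% of all tested genes, and 5 were lower, 16.1% of the members against 18.1% of all tested genes. The changes were modest. Log2 fold changes of shGrhl3 over shNT ran from -0.92 for Stard4 to 0.67 for Ebp, none reached 1 in size, and the median was 0.21, against -0.01 over all tested genes. The median size without its sign was 0.29, against 0.30 over all tested genes. The tested genes set beside the members were not matched for level, and level affects how readily a gene is called. For 24 of the 31 genes the shGrhl3 and shNT libraries did not overlap, 17 higher and 7 lower in shGrhl3, where 66.5% of all tested genes did not overlap, 32.8% higher and 33.7% lower. The summed level of the 31 genes was 2162 and 2247 CPM in shGrhl3 libraries and 2076 and 2090 CPM in shNT libraries. In bulk RNA, fewer cells of a type and less RNA per cell cannot be told apart. The count of higher members fell to 7 when shNT replicate 1 was left out and also to 7 without shNT replicate 2.

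**Figure D1:**
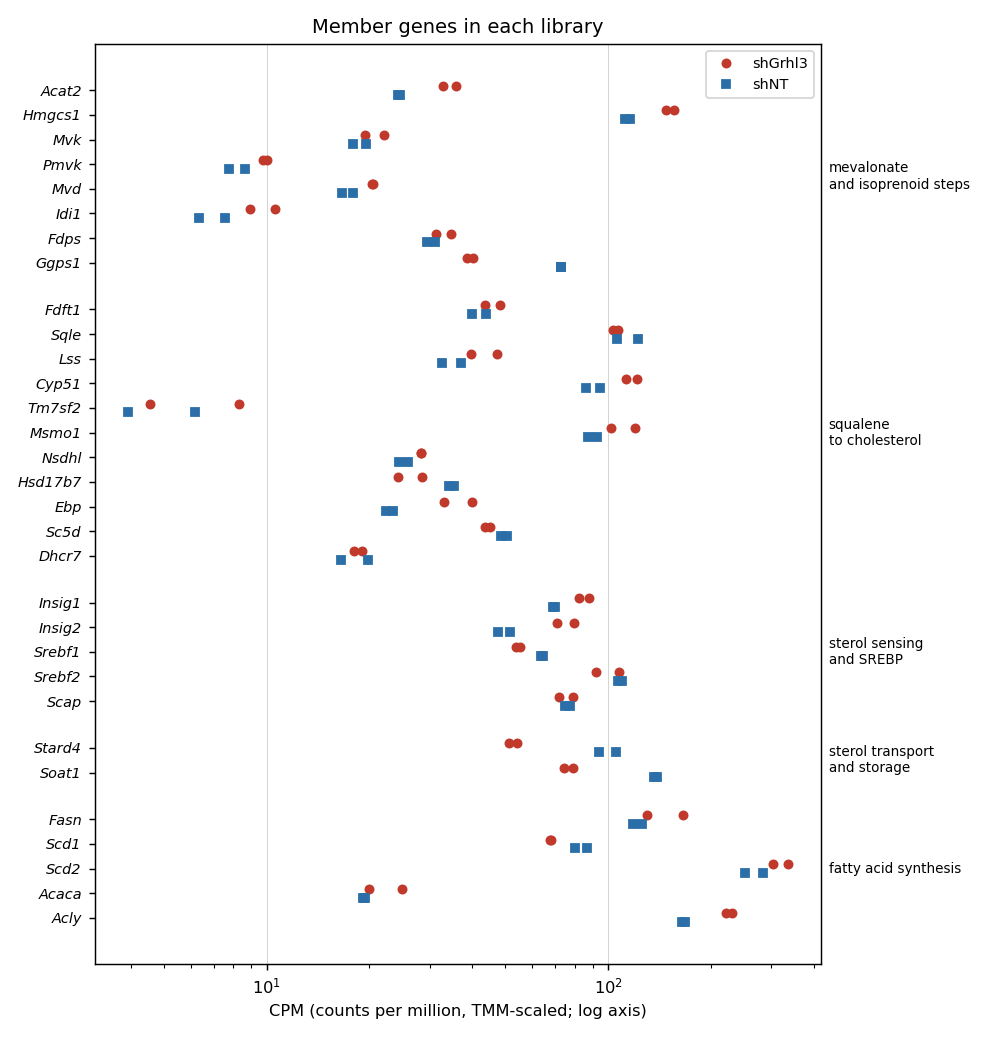
Level of each of the 31 genes in CPM (log axis) in the 2 shGrhl3 libraries (red circles) and the 2 shNT libraries (blue squares), grouped by role. Stard4, Soat1 and Ggps1 lie well to the left in both shGrhl3 libraries, while Ebp, Insig2, Acat2, Acly and Hmgcs1 lie to the right in both.

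Promoter sequence was read for the members because SREBP, NF-Y and Sp1 sites are a known feature of this pathway. Of the 31 genes, 25 matched the RefSeq promoter table (GRCm38.p6) with 33 windows, here the 250 bases before each annotated start, and both strands were searched. The windows of Fasn, Acaca and Srebf1 all lay wholly inside the annotated span of the gene, at starts within it, and were counted all the same. Some windows of other members lay partly or wholly inside the span too. The NF-Y box CCAAT stood in 22 of the 33 windows (66.7%), against 33.8% of all 32851 windows of that length and 35% of those of tested genes. The Sp1 box GGGCGG stood in 23 windows (69.7%), against 32.7% of all windows and 56.1% of those of tested genes. The core of the sterol regulatory element, TCACNCCAC, was found in 1 window (3.03%), that of Hmgcs1, against 1.05% of all windows and 1.02% of those of tested genes. The E-box CACGTG stood in 5 windows (15.2%), against 6.02% of all windows and 8.08% of those of tested genes. The Grainyhead-like site AACCGGTT was found in none of the 33 windows and in 0.116% of all windows and 0.192% of those of tested genes. Only exact matches to these letters were counted, so a window without a match can still hold a site that differs by a base. Each motif was counted on its own, so a base can count for more than 1 motif where matches overlap. A match is a description of the sequence, not a bound site. Counted by gene, the CCAAT box was present in 37.5% of all 27025 genes with a window and the Sp1 box in 35.4%. These shares include genes that were not tested. By window the Sp1 box was more frequent in tested genes (56.1%), so 35.4% is a low reference for the members. The CCAAT box was present in 8 of the 10 higher members with a window, in 3 of the 3 lower members and in 10 of the 12 others. The Sp1 box was present in 9 of the 10 higher, 1 of the 3 lower and 10 of the 12 members that did not pass. The 3 lower members are too few for a comparison by call.

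The windows of 2 higher and 2 lower members are printed to show that members moving in opposite directions both carry the CCAAT box. Each runs 5′ to 3′ along the gene's own strand and ends at the base before an annotated transcript start, which for Ggps1 lies inside the span of the gene given below, so that its window overlaps that span in part. Capitals mark CCAAT or its reverse complement ATTGG and, in Hmgcs1 alone, the sterol regulatory core that begins 137 bases before the start.
Hmgcs1, chr13:119690101-119690350, plus strand: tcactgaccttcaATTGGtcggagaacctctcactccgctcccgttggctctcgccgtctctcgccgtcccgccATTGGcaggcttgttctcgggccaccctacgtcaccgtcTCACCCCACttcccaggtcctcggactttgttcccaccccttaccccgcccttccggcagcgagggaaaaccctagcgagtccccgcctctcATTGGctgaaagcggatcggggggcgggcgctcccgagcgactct
Ebp, chrX:8193513-8193762, minus strand: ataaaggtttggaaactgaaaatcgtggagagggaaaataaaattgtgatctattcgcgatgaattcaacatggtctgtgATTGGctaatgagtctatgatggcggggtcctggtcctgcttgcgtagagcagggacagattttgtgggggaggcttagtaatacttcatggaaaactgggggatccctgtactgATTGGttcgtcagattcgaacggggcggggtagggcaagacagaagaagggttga
Ggps1, chr13:14063489-14063738, minus strand: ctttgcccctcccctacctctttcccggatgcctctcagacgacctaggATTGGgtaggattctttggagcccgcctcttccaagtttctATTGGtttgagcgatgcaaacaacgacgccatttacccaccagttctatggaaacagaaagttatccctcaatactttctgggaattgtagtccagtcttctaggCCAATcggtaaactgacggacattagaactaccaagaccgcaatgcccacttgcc
Soat1, chr1:156474329-156474578, minus strand: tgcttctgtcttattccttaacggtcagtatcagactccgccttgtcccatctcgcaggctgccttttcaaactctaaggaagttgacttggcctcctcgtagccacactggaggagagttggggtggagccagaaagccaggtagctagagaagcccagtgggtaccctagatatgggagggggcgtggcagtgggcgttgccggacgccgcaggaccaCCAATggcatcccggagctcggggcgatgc

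The first steps of the pathway, from acetyl-CoA to the isoprenoid chains, were covered by 8 genes. Of these, 2 were higher (25%), 1 was lower (12.5%) and 5 did not pass. For this and each later stage, the shares of all tested genes were 17.2% higher and 18.1% lower. Acat2, which joins acetyl-CoA units, had 36.0 and 32.8 CPM in the shGrhl3 libraries against 24.2 and 24.6 CPM in the shNT libraries. Hmgcs1 (chromosome 13, 119690351 to 119708260, GRCm38.p6), the HMG-CoA synthase whose promoter is shown above, had 156 and 148 CPM in shGrhl3 against 116 and 112 CPM in shNT. Both genes were higher in each shGrhl3 library than in either shNT library. The log2 fold change was 0.49 (SE 0.12, edgeR adjusted p = 0.00196) for Acat2 and 0.41 (SE 0.09, edgeR adjusted p = 6.44e-04) for Hmgcs1. Acat2 has a near-identical neighbour, Acat3, and how reads shared by such copies were counted is not known.

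Ggps1 (chromosome 13, 14049790 to 14063566, GRCm38.p6), the synthase that makes geranylgeranyl diphosphate for the anchoring of small GTPases and so draws isoprenoids away from sterols, moved the other way. It had 40.2 and 38.6 CPM in shGrhl3 libraries against 72.5 and 72.7 CPM in shNT libraries. The groups were far apart and the libraries within each were close. Its log2 fold change was -0.88 (SE 0.10, edgeR adjusted p = 2.36e-07), 0.543 times the shNT level. The kinases and the decarboxylase between HMG-CoA and the isoprenoids did not pass: Mvk stood at a log2 fold change of 0.14 (edgeR adjusted p = 0.441), Pmvk at 0.27 (0.262) and Mvd at 0.24 (0.172). Idi1, which isomerises the isoprenoid unit, had 8.93 and 10.6 CPM in shGrhl3 against 7.58 and 6.36 CPM in shNT. Its groups did not overlap, but a log2 fold change of 0.47 missed the threshold (edgeR adjusted p = 0.0605), and it passed with library sizes alone (0.0467) and without shGrhl3 replicate 1 (0.0405). Fdps, which joins isoprenoid units into farnesyl diphosphate, stood at 0.13 (edgeR adjusted p = 0.43).

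**Figure D2:**
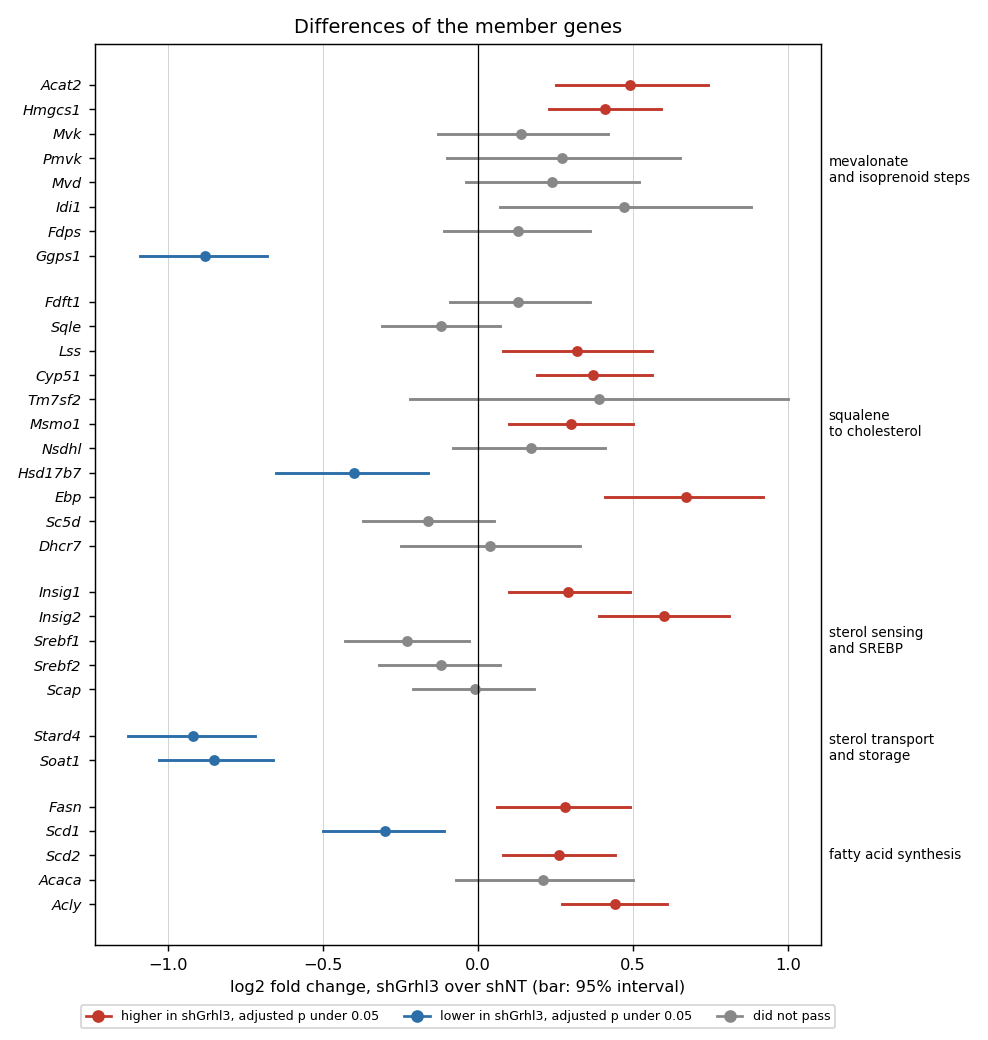
Log2 fold change of shGrhl3 over shNT (points) with its 95% interval (bars) for each of the 31 genes, coloured by the edgeR call. The 5 lower genes, in blue, include Stard4 at -0.92, Ggps1 at -0.88 and Soat1 at -0.85, and the highest of the 11 red points is Ebp at 0.67.

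From squalene to cholesterol, 4 of 11 genes were higher (36.4%), 1 was lower (9.09%) and 6 did not pass, with a median log2 fold change of 0.17. Ebp (chromosome X, 8185329 to 8193512, GRCm38.p6), the sterol isomerase that shifts the ring's double bond, had 39.8 and 33.0 CPM in shGrhl3 libraries against 22.4 and 23.5 CPM in shNT libraries. Both shGrhl3 libraries were above both shNT libraries, and the log2 fold change of 0.67 (SE 0.12, edgeR adjusted p = 1.62e-04) was the highest of the 31 genes. Cyp51, the demethylase that removes the first methyl group of lanosterol, had 121 and 113 CPM in shGrhl3 against 94.4 and 86.1 CPM in shNT. Msmo1, the oxidase that starts the removal of the next methyl groups, had 120 and 102 CPM in shGrhl3 against 92.9 and 87.0 CPM in shNT. Lss, the cyclase that closes squalene epoxide into lanosterol, had 39.6 and 47.3 CPM in shGrhl3 against 32.6 and 37.0 CPM in shNT. None of the 3 genes overlapped between groups. Their log2 fold changes were 0.37 (edgeR adjusted p = 0.00247) for Cyp51, 0.30 (0.017) for Msmo1 and 0.32 (0.0341) for Lss.

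Hsd17b7, the ketoreductase of the same demethylation complex, was the lower one, with 24.2 and 28.5 CPM in shGrhl3 libraries against 35.4 and 34.2 CPM in shNT libraries. Its log2 fold change was -0.40 (SE 0.12, edgeR adjusted p = 0.0107), the opposite sign to Msmo1 in the same step. Nsdhl, the dehydrogenase of that complex, stood at 0.17 (edgeR adjusted p = 0.292). Sqle, the squalene epoxidase that is a rate-limiting step, had 104 and 107 CPM in shGrhl3 against 122 and 106 CPM in shNT. The groups overlapped, and its log2 fold change was -0.12 (95% interval -0.31 to 0.07, edgeR adjusted p = 0.328). Sc5d, the desaturase, stood at -0.16 (edgeR adjusted p = 0.24), and Dhcr7, the last reductase of one branch, at 0.04 (0.867). Tm7sf2, a sterol reductase, had 8.33 and 4.55 CPM in shGrhl3 against 3.92 and 6.17 CPM in shNT. The groups overlapped, and its log2 fold change of 0.39 did not pass (edgeR adjusted p = 0.33). It passed without shGrhl3 replicate 2 (edgeR adjusted p = 0.0179) and had the opposite sign without shGrhl3 replicate 1.

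Fdft1, the squalene synthase that commits isoprenoids to sterols, stood at 0.13 (edgeR adjusted p = 0.359). It overlaps Ctsb, a lysosomal protease gene, by 774 bases. Ctsb was lower, with 11744 and 10011 counts in shGrhl3 against 18255 and 17979 in shNT. Because the strand setting of the counting is not given, reads in the shared stretch could belong to either gene. The same limit holds for called members. Insig1 shares 7251 bases with the lncRNA gene Gm35223 and Acat2 shares 634 with the pseudogene Gm20591, neither with a count row under that name. Lss shares 11269 bases with the lncRNA gene 4930483K19Rik, which had 0 to 9 counts per library. In this stage 4 calls ended when 1 library was left out: Lss without shGrhl3 replicate 2 (log2 fold change 0.21, edgeR adjusted p = 0.225) or shNT replicate 1 (0.294), Cyp51 without shNT replicate 2 (0.0732), Msmo1 without shGrhl3 replicate 1 (log2 fold change 0.18, adjusted p = 0.185) or shNT replicate 2 (0.157), and Hsd17b7 without shGrhl3 replicate 1 (0.115) or shNT replicate 1 (0.0694). Lss also missed the threshold under DESeq2 (adjusted p = 0.0828).

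Of the 5 genes that sense sterol and run the SREBP switch, the 2 Insig genes were higher (40%) and none was lower. The transcription factors and their escort did not pass. Insig2 (chromosome 1, 121304353 to 121332662, GRCm38.p6), which retains Scap in the endoplasmic reticulum, had 71.0 and 79.3 CPM in shGrhl3 libraries against 51.5 and 47.4 CPM in shNT libraries. Its log2 fold change was 0.60 (SE 0.10, edgeR adjusted p = 5.13e-05). Insig1, its relative and itself a classical SREBP target, had 82.3 and 87.7 CPM in shGrhl3 against 69.0 and 69.8 CPM in shNT. The groups were apart for both genes, with a log2 fold change of 0.29 (SE 0.09, edgeR adjusted p = 0.0172) for Insig1.

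Srebf1, which encodes the SREBP form tied more to fatty acid synthesis, had 53.6 and 55.1 CPM in shGrhl3 libraries against 63.4 and 64.5 CPM in shNT libraries. The groups did not overlap, but the log2 fold change of -0.23 (95% interval -0.43 to -0.03) missed the threshold after adjustment (edgeR adjusted p = 0.0651). Srebf2, which encodes the form tied more to cholesterol, had 91.9 and 107 CPM in shGrhl3 against 107 and 110 CPM in shNT. Its log2 fold change was -0.12 (95% interval -0.32 to 0.07, edgeR adjusted p = 0.339). Scap, the escort protein, stood at -0.01 (95% interval -0.21 to 0.18, edgeR adjusted p = 0.926), and its sign changed with library sizes alone, without shGrhl3 replicate 1 and without shNT replicate 2. Transcript counts do not report the proteolytic activation of SREBP. The Insig1 call ended without shNT replicate 1 (edgeR adjusted p = 0.133) or shNT replicate 2 (0.0965).

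Both genes of sterol transport and storage were lower in shGrhl3 cells, and they held the lowest and the third lowest fold change of the 31. Stard4, a soluble carrier that moves cholesterol between membranes and a known SREBP target, had 51.1 and 54.1 CPM in shGrhl3 libraries against 105 and 94.3 CPM in shNT libraries. Soat1 (chromosome 1, 156428108 to 156474328, GRCm38.p6), which esterifies cholesterol for storage in droplets, had 74.1 and 79.0 CPM in shGrhl3 against 136 and 139 CPM in shNT. In both genes every shGrhl3 library lay far below every shNT library. The log2 fold change was -0.92 (SE 0.10, edgeR adjusted p = 8.60e-08) for Stard4 and -0.85 (SE 0.09, edgeR adjusted p = 9.29e-08) for Soat1, 0.527 and 0.556 times the shNT level.

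Macrophage markers moved in the same direction as these lower genes. The 18 markers summed to 154 and 123 CPM in shGrhl3 libraries against 666 and 915 CPM in shNT libraries. Of the 12 that could be tested, 10 were lower (83.3%, against 18.1% of all tested genes) and 1, Csf1r, was higher (8.33%, against 17.2%). The complement genes were too low to test. C1qb had 0 and 0 counts in shGrhl3 libraries against 5 and 2 in shNT libraries. Counts were 0 and 0 against 6 and 6 for C1qc, and 0 and 6 against 1 and 11 for C1qa. Lyz2, the lysozyme gene that made up most of the sum, had 102 and 75.7 CPM in shGrhl3 against 454 and 645 CPM in shNT. Macrophages express Soat1 and other genes of sterol handling strongly, and the part of these cells in the lower values was not tested.

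**Figure D3:**
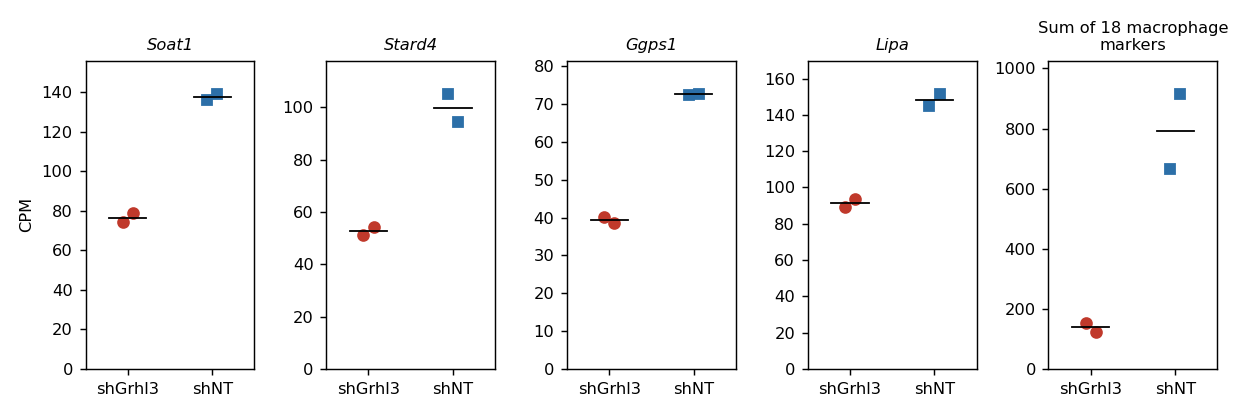
Level in CPM of Soat1, Stard4 and Ggps1, of the lysosomal lipase gene Lipa, and the sum of 18 macrophage markers, with a point per library and a line at the mean of the 2 libraries of a group; each panel has its own axis from 0. In every panel both shGrhl3 libraries (red) lie below both shNT libraries (blue), with the marker sum at 154 and 123 CPM against 666 and 915 CPM. The genes shown were taken from those called lower, and 33.7% of all tested genes lay apart in this direction.

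Of the 5 genes of fatty acid synthesis, 3 were higher (60%), 1 was lower (20%) and 1 did not pass. Acly (chromosome 11, 100476352 to 100528000, GRCm38.p6), which makes cytosolic acetyl-CoA from citrate for both fatty acids and sterols, had 221 and 230 CPM in shGrhl3 libraries against 165 and 168 CPM in shNT libraries. Its log2 fold change was 0.44 (SE 0.08, edgeR adjusted p = 1.98e-04). Fasn, the fatty acid synthase, had 130 and 166 CPM in shGrhl3 against 118 and 125 CPM in shNT, with the higher shGrhl3 library well above the rest. Its log2 fold change was 0.28 (SE 0.10, edgeR adjusted p = 0.0395).

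The stearoyl-CoA desaturases, which make monounsaturated fatty acids, went in opposite directions. Scd2 had 304 and 336 CPM in shGrhl3 libraries against 251 and 284 CPM in shNT libraries, and Scd1 had 67.3 and 68.0 CPM in shGrhl3 libraries against 80.2 and 87.0 CPM in shNT libraries. The groups were apart for both genes, with a log2 fold change of 0.26 (SE 0.09, edgeR adjusted p = 0.0221) for Scd2 and -0.30 (SE 0.09, edgeR adjusted p = 0.0147) for Scd1. Their relatives Scd3 and Scd4 had 0 to 2 counts per library. Acaca, the carboxylase that makes malonyl-CoA, had 19.9 and 24.9 CPM in shGrhl3 against 19.4 and 19.2 CPM in shNT, a log2 fold change of 0.21 that did not pass (edgeR adjusted p = 0.248). The Fasn call ended with no filter on low counts (edgeR adjusted p = 0.0514), under DESeq2 (adjusted p = 0.0656) and without shGrhl3 replicate 2 (log2 fold change 0.11, adjusted p = 0.42), shNT replicate 1 (0.204) or shNT replicate 2 (0.0591). With shGrhl3 replicate 1 left out instead, Fasn stood at 0.44 on the log2 scale. The Scd1 call ended without shNT replicate 2 (edgeR adjusted p = 0.193), and the Scd2 call without shGrhl3 replicate 2 (0.0613) or shNT replicate 1 (log2 fold change 0.17, adjusted p = 0.366).

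Adipocytes also express the fatty acid genes strongly. Of 14 adipocyte markers, 4 (Cfd, Cidec, Retn and Car3) had no counts in any library, and 9 averaged under 1 CPM. The list summed to 425 and 430 CPM in shGrhl3 libraries against 518 and 523 CPM in shNT libraries, nearly all of it Lpl, the lipoprotein lipase that heart and macrophage cells also make. Of the 5 adipocyte markers that could be tested, 3 were higher (60%, against 17.2% of all tested genes) and 2 were lower (40%, against 18.1%). Log2 fold changes were 1.26 for Pparg, 0.88 for Plin4, 0.44 for Cebpa, -0.31 for Lpl and -2.63 for Fabp4. Of these calls, only those of Pparg and Fabp4 held under all 13 alternatives. The part of adipocyte-like expression in the fatty acid genes was not tested.

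The 31 genes are not the whole pathway, and 98 further genes in 5 lists were read beside them. Of the 90 tested, 20 were higher (22.2%), 21 were lower (23.3%) and 49 did not pass, with a median log2 fold change of 0.003. Of all tested genes, 17.2% were called higher and 18.1% lower, the shares to set beside each list below. Among 7 other sterol enzymes, 3 were higher (42.9%) and 1 was lower (14.3%). Erg28, a scaffold of the demethylation complex that holds Msmo1, Nsdhl and Hsd17b7, had 46.3 and 41.4 CPM in shGrhl3 against 18.4 and 20.4 CPM in shNT, a log2 fold change of 1.18 (SE 0.12, edgeR adjusted p = 5.34e-08). Lbr, a nuclear envelope protein with sterol reductase activity, was higher at 0.50 (edgeR adjusted p = 0.00573), and Cyb5b, an electron carrier, was lower at -0.37 (0.00182). Both calls ended without shNT replicate 2, where Lbr stood at 0.33 (edgeR adjusted p = 0.141) and Cyb5b at -0.31 (0.0584). The scaffold Erg28 and the oxidase Msmo1 were higher, and the ketoreductase Hsd17b7 of the same complex was lower. The Msmo1 and Hsd17b7 calls ended without certain libraries, as given above, and Nsdhl of that complex did not pass.

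Of 16 genes that process SREBP or degrade sterol-regulated proteins, 6 were higher (37.5%), 1 was lower (6.25%) and 9 did not pass. For 14 of the 16, both shGrhl3 libraries lay above both shNT libraries, as they did for 32.8% of all tested genes. Mbtps1, the first protease that cuts SREBP in the Golgi, had 210 and 226 CPM in shGrhl3 libraries against 157 and 159 CPM in shNT libraries, a log2 fold change of 0.46 (SE 0.08, edgeR adjusted p = 1.42e-04). Erlin1, a cholesterol-binding protein of the endoplasmic reticulum, was higher at 0.71 (edgeR adjusted p = 2.19e-05), and Rnf139, a ubiquitin ligase that works with the Insig proteins, at 0.46 (0.00139). Sec24c, a coat subunit of the vesicles that leave the endoplasmic reticulum, was lower at -0.46 (edgeR adjusted p = 2.04e-04).

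**Figure D4:**
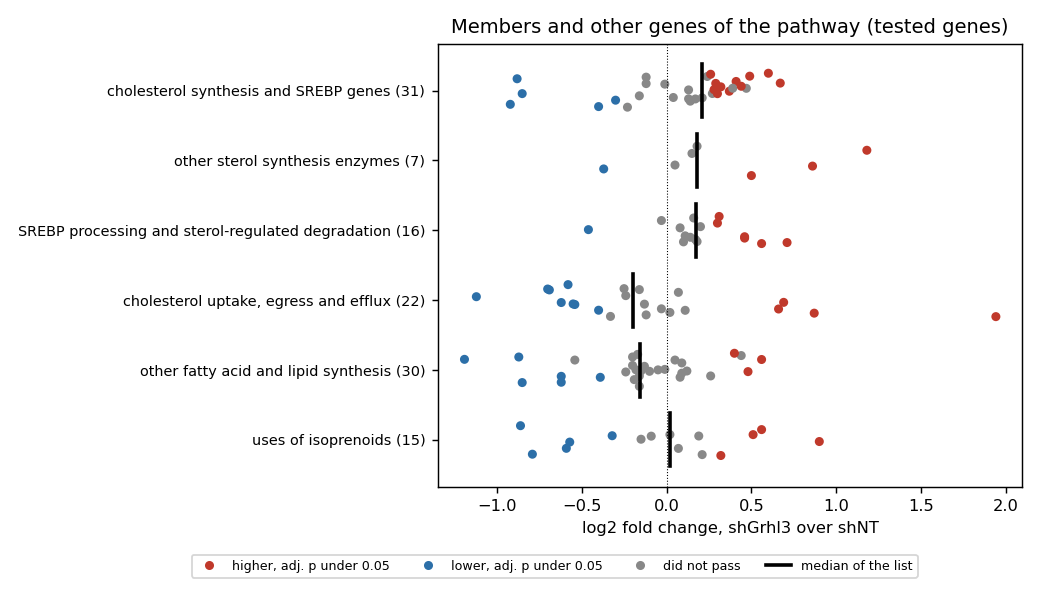
Log2 fold change of shGrhl3 over shNT for the tested genes of the 31 and of 5 further lists (tested genes in parentheses), coloured by the edgeR call, with a bar at each list's median. The medians are 0.21 for the 31 genes, 0.18 and 0.17 for the 2 lists next to them in function, -0.20 for uptake, egress and efflux, -0.15 for other lipid synthesis and 0.02 for the uses of isoprenoids.

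Of 24 genes of cholesterol uptake, egress and efflux, 22 were tested. Of these, 4 were higher (18.2%) and 8 were lower (36.4%), with a median log2 fold change of -0.20. Mylip, a ubiquitin ligase, had 8.08 and 6.69 CPM in shGrhl3 against 14.4 and 18.01 CPM in shNT. Its log2 fold change was -1.12 (SE 0.18, edgeR adjusted p = 2.37e-05). Both shGrhl3 libraries lay below both shNT libraries. Osbp, a sterol exchanger between membranes, was higher at 0.66 (edgeR adjusted p = 1.26e-06), and Scarb1, the HDL receptor, at 0.69 (1.64e-04). Lipa, which frees cholesterol from esters in lysosomes, had 89.5 and 93.5 CPM in shGrhl3 against 145 and 152 CPM in shNT, a log2 fold change of -0.70 (edgeR adjusted p = 1.26e-06), and the sterol-binding Osbpl2 was lower at -0.62 (4.44e-05). The macrophage marker sums given above moved with Lipa too, and their part was not tested.

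Of 36 other genes of fatty acid and lipid synthesis, 30 were tested. Of these, 3 were higher (10%), 6 were lower (20%) and 21 did not pass. The lower ones included the chain elongases Elovl1 (log2 fold change -1.19, edgeR adjusted p = 1.19e-09) and Elovl5 (-0.85, 8.53e-07) and the acyl-CoA synthetase Acsl5 (-0.62, 3.00e-05). The higher ones were Mid1ip1, an activator of Acaca (0.56, edgeR adjusted p = 1.41e-04), Acsl1, another acyl-CoA synthetase (0.48, 0.0021), and Mcat, of the mitochondrial fatty acid pathway (0.40, 0.0275). The Mcat call ended under DESeq2 (adjusted p = 0.0844) and with any 1 library left out (edgeR adjusted p between 0.0509 and 0.189).

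Of 15 genes that use the product of Ggps1 or other isoprenoids, 4 were higher (26.7%), 5 were lower (33.3%) and 6 did not pass. Rabggtb, the catalytic subunit that puts geranylgeranyl groups on Rab proteins, had 36.2 and 35.8 CPM in shGrhl3 libraries against 62.8 and 67.9 CPM in shNT libraries, a log2 fold change of -0.86 (SE 0.10, edgeR adjusted p = 5.53e-07). Nus1, a subunit of the dolichol chain synthase, was lower at -0.79 (edgeR adjusted p = 1.92e-07), and Zmpste24, the protease that trims prenylated lamin A, at -0.57 (1.83e-05). Icmt, which methylates prenylated proteins, had 113 and 126 CPM in shGrhl3 against 67.0 and 60.7 CPM in shNT, a log2 fold change of 0.90 (SE 0.10, edgeR adjusted p = 1.03e-07). Fntb, a farnesyl transferase subunit, was higher at 0.51 (edgeR adjusted p = 0.0106), and Dolk, the dolichol kinase, at 0.32 (0.0297). The Fntb call ended without shGrhl3 replicate 2 (edgeR adjusted p = 0.104) or shNT replicate 1 (0.0703), and the Dolk call without shGrhl3 replicate 1 (0.161) or shNT replicate 1 (0.273) and under DESeq2 (0.0759).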

How the data were processed

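RNA was read from 4 libraries, 2 labelled shGrhl3 and 2 labelled shNT. The authors deposited 1 table of raw counts per gene, whole numbers with no normalization, as the values show. Its columns shGrhl1 and shGrhl2 were read as shGrhl3 replicates 1 and 2, as no other target is named in the labels. Per the submitters' processing notes, the tools were HISAT2 2.0.1 and Bowtie2 2.2.6, cutadapt 1.9.1, ChIPseeker and MACS2, on mm10, with no role stated. The counting program, annotation, strand setting and treatment of multi-mapping reads were not given in the sources used here. Of 55359 rows, 1438 name no gene (0.00432% to 0.00872% of a library's counts) and were left out.

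edgeR 4.0.16 (R 4.3.3) fitted a robust quasi-likelihood model to both groups with no covariate, after filterByExpr at a minimum count of 10 and TMM scaling. Tests were two-sided, p-values were adjusted by Benjamini-Hochberg over the 15324 tested genes, and the threshold was 0.05. SEs were derived from the F statistic, and fold changes are shGrhl3 over shNT. The alternatives were other scalings and filters, DESeq2 1.42.0, limma-voom (limma 3.58.1), summed symbols, a replicate block, each library left out, and, chosen after seeing the data, the removal of rRNA rows. With 16102839 to 19822541 counts per library, genes of few counts, such as Grhl3, have a wide error.

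The members and lists were chosen with earlier results of these data known. Named are all 31 members, up to 3 higher and 3 lower genes with the lowest p in each pathway list, the most abundant markers, Grhl3 and the delivered factors; some genes that this rule takes are not reported here. Csf1r, C1qa, C1qb, C1qc, Ctsb, Pdgfra, Tcf21, Pparg, Plin4, Myh6, Tnni3 and Nppa were named after their values were seen. So were the adipocyte markers at 0 and the genes of the last observations. Further marker lists (endothelial, smooth muscle and pericyte, epithelial and mesothelial) had 2, 3 and 0 genes lower and 0, 3 and 3 higher of 10, 12 and 8 tested. Of all tested genes, 18.1% were called lower and 17.2% higher. Gene positions and promoter windows are from RefSeq on GRCm38.p6; the promoter search used the 250 bases before the start. The promoter table matched 25 of the 31 members, and Stard4, Fdps, Fdft1, Scd1, Scd2 and Sqle had no entry in it.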

Additional observations from a re-analysis of the deposited data

How the results depend on the processing

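Of the 16 members called, 8 kept their call and direction under all 13 alternatives: Acat2, Hmgcs1, Ebp, Insig2 and Acly higher, and Ggps1, Stard4 and Soat1 lower in shGrhl3. The other 8 lost it under at least one, and none of the 16 changed sign. With a library left out, the number of higher members ran from 7 to 11, that of lower members from 4 to 5, their median log2 fold change from 0.17 to 0.21, and all genes called from 3835 to 5190. Across the other alternatives the higher members numbered 9 to 12, and 5 stayed the count of lower members. DESeq2 called 4234 genes and library sizes alone 5491. Signs turned in members that did not pass: Tm7sf2 ranged from -0.12 without shGrhl3 replicate 1 to 0.77 without shGrhl3 replicate 2, Dhcr7 had -0.002 without shGrhl3 replicate 1 and -0.10 without shNT replicate 1, and Scap had -0.07 without shGrhl3 replicate 2, 0.01 with library sizes only, 0.06 without shGrhl3 replicate 1 and 0.01 without shNT replicate 2. Where 1 library remained in a group, it was assumed to vary like the other group.

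The groups share replicate numbers, but the labels do not say that a number marks a shared batch, and the deviations of same-numbered libraries correlated at -0.06 over 15324 genes, so the numbers were not treated as pairs. With a replicate block 5042 genes were called, 11 members higher and 5 lower with a median of 0.20, and no member's call changed.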

Other observations

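The following genes of the lists were chosen after their values were seen. Soat2, the other enzyme that esterifies cholesterol, had 34 and 56 counts in shGrhl3 libraries against 7 and 14 in shNT libraries, a log2 fold change of 1.94 (SE 0.51, edgeR adjusted p = 0.00429), the opposite direction to Soat1 but at few counts. That call ended without shNT replicate 1 (log2 fold change 1.39, edgeR adjusted p = 0.0781). Elovl6, which lengthens the chains that Fasn makes, was lower at -0.87 (edgeR adjusted p = 3.99e-04), and so was Fads2, a desaturase of polyunsaturated fatty acids, at -0.62 (1.12e-04). Ch25h, which makes an oxysterol, had 22.9 and 16.7 CPM in shGrhl3 against 28.9 and 30.5 CPM in shNT and was lower at -0.58 (edgeR adjusted p = 0.0021), but at -0.35 it missed the threshold without shGrhl3 replicate 2 (0.0568).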
